A study of Homo sapiens with 8 samples.

Results

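Moving new proteins into the endoplasmic reticulum (ER), folding them, disposing of those that fail and adjusting all of this under stress takes dedicated machinery. The 58 genes described here mostly encode it. They were taken by symbol from a table of 4616 genes: symbols that start with SEC, SSR or SRP followed by a digit, or with SPCS, PDIA, RPN1, RPN2, DERL or ERO1, and 18 single names such as XBP1, CANX and CALR. Of the single names, SYVN1 and SRPR had 0 rows. SRPR is an older name of SRPRA, which has a row that the symbol rule does not take; counts with it are given beside the main ones. The rule also takes 12 other SEC genes, mostly of the COPII coat and ER exit but also the lipid-binding SEC14L2, and these are kept apart below.

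Secreted and membrane proteins are recognised by the signal recognition particle (SRP) while they are being made, and their ribosomes dock on the SEC61 channel of the ER. Inside, the signal peptide is cut off, sugars are attached, disulfide bonds are formed and lectin chaperones hold the chain until it is folded. When unfolded protein builds up, the unfolded protein response (UPR) raises the transcription of this machinery through XBP1 and ATF6, and its PERK branch lowers overall initiation while favouring ATF4.

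The cells were WM902B, an established line from a human primary melanoma with a BRAF mutation, at passage 18. They carried either shSCR, a scrambled control hairpin, or shTINCR, a hairpin against the long non-coding RNA TINCR, and all were given cycloheximide (100 µg/ml for 5 min), which holds ribosomes in place. Footprints (fragments that ribosomes protect from digestion) and RNA were each sequenced in 2 biological replicates per hairpin, which gave 8 libraries in 4 groups. The labels do not say whether the infected cells were a pool or a clone, and the RNA is called total in the titles and polyA in its molecule subtype. For each gene the authors' deposited table gives a log2 translational efficiency (TE, footprints over mRNA) per hairpin, the log2 change of TE (shTINCR over shSCR) and a p-value, but no value per library. The depth of the libraries and their spread are therefore unknown, and TINCR itself had 0 rows. Of 8 melanocyte lineage markers 7 had a row, against 0 of 4 for keratinocytes, 1 of 7 for fibroblasts, 0 of 3 for endothelium and 0 of 3 for immune cells. A change in all cells and a larger one in some of them cannot be told apart in such cultures.

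TE of most ER genes differed little between the hairpins. At the authors' adjusted p below 0.05, 7 of the 58 genes passed (12.1%), against 16.4% of all 4616 genes. The rises were SDF2L1, CRELD2 and XBP1 (3 of 58, against 8.23% of all genes) and the falls SEC61G, SRP54, SEC62 and CANX (4 of 58, against 8.17%). The count was thus no higher than that of the table as a whole, also without the COPII and other SEC genes, where it was 7 of 46 (15.2%). With SRPRA, which rose, it would be 8 of 59 (13.6%, 4 rises). The median log2 change was 0.0089 over the 58 genes and 0.016 over all genes, and the SD across genes was 0.195 against 0.249. No ER gene reached an absolute log2 change of 0.5, which 4.46% of all genes did. The extremes were -0.44 for SEC61G and 0.41 for SDF2L1 in the authors' deposited table.

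The same reading held at other thresholds, given as shares of ER genes and of all genes. An unadjusted p below 0.05 was met by 13 ER genes (22.4% against 29.5% of all genes), 7 upwards and 6 downwards. With the first version of the authors' p-value 9 ER genes passed (15.5% against 17.9%), and with the second version also 9 (against 20.3%). At an adjusted p below 0.1 there were 10 (17.2% against 22%) and at 0.01 there were 2 (3.45% against 7.82%), namely SRP54 and SEC61G. After Bonferroni adjustment 0 of 58 passed (against 2.6%). With a log2 change of at least 0.25 as well, 6 passed (10.3% against 16.1%), since CANX dropped out. The standard error that a change and its p-value imply, under a normal statistic, had a median of 0.114 over the ER genes and 0.13 over all genes.

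**Figure D1:**
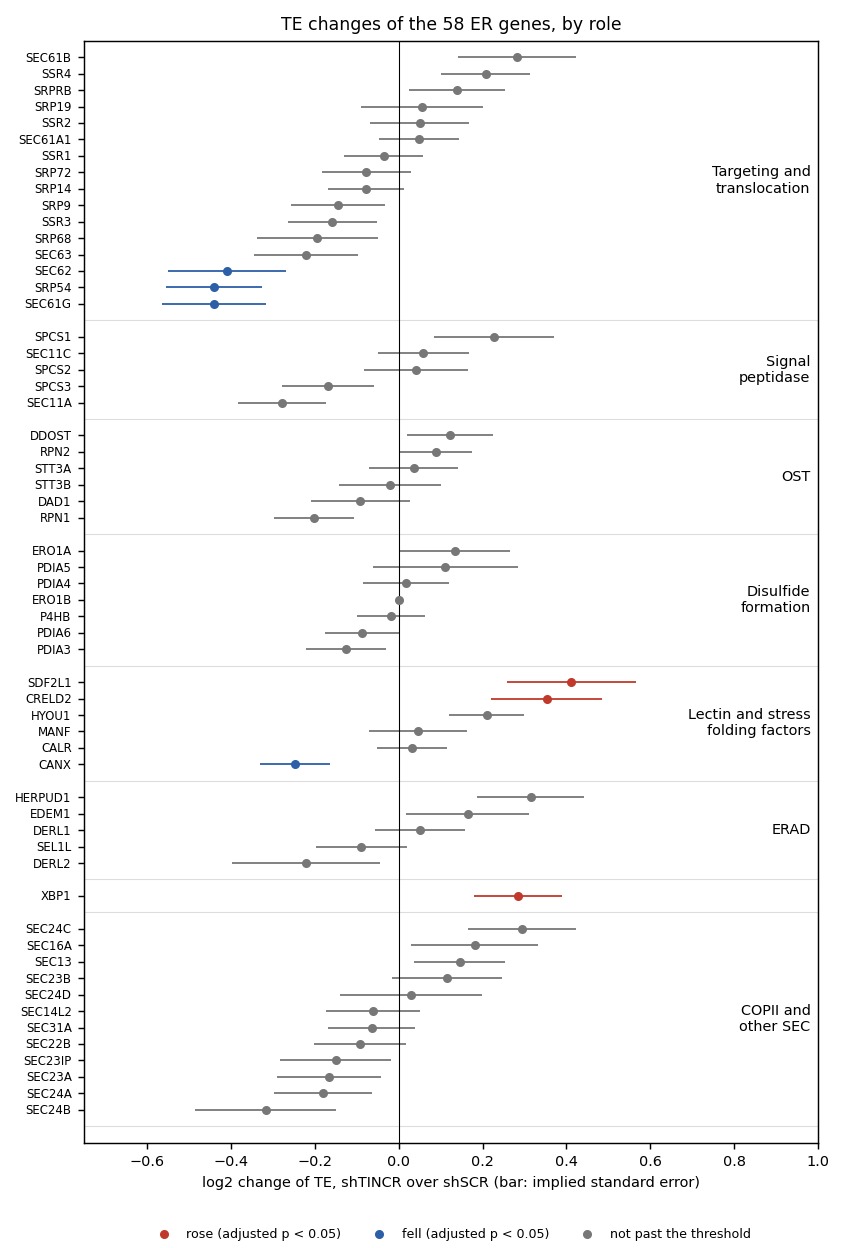
Log2 change of TE (shTINCR over shSCR, x axis) of each of the 58 ER genes, grouped by role; points are the authors' values, bars 1 implied standard error on each side, and colour marks the call at adjusted p below 0.05. The 3 rises and 4 falls stand at the ends of their groups; ERO1B, whose change is listed as 0, has no bar, and OST and ERAD stand for oligosaccharyltransferase and ER-associated degradation.

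Protein targeting and translocation held 3 of the 4 falls. Of its 16 measured genes 3 fell, 0 rose and 13 did not pass, with a median log2 change of -0.08. The share called was 18.8%, all of it falls, against 16.4% of all genes called in either direction and 8.17% that fell. The difference was not tested. SRP54, the GTPase of SRP that binds the signal peptide, fell from 0.47 in shSCR cells to 0.03 with shTINCR on the log2 TE scale, a change of -0.44 in the authors' deposited table (0.737-fold, adjusted p = 0.00248). SEC61G, the small γ subunit that clamps the SEC61 channel, went from 0.51 to 0.07, a change of -0.44 in the authors' deposited table (0.737-fold, adjusted p = 0.00591). SEC62, which helps short and poorly targeted precursors into the channel, went from 0.42 to 0.01, a change of -0.41 in the authors' deposited table (0.753-fold, adjusted p = 0.0284). All 3 therefore started at a TE above that of the typical gene, between the 70.2th and 74.5th percentile of the table, and ended close to the median gene, whose log2 TE was 0.0078 in shSCR and 0.0019 in shTINCR cells.

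Their partners did not all move with them. The SEC61 channel has 3 subunits, and TE of its β subunit SEC61B had a change of 0.28, from 0.16 to 0.44 in the authors' deposited table (adjusted p = 0.157), while the pore-forming SEC61A1 stood at 0.05. The order of SEC61B and SEC61G was thus turned: TE of SEC61B was 0.783 times that of SEC61G in shSCR cells and 1.29 times in shTINCR cells. This difference between the genes' changes (0.72 on the log2 scale) was noticed after the values were seen and was not tested. SEC63, which recruits the chaperone BiP to the channel together with SEC62, had a change of -0.22 in the authors' deposited table (adjusted p = 0.22).

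Among the other SRP proteins, the authors' deposited table lists changes of -0.19 for SRP68, -0.15 for SRP9, -0.08 for SRP14 and SRP72, and 0.06 for SRP19, which helps SRP54 onto the particle. None of these 5 passed, where 16.4% of all genes did. The β subunit of the SRP receptor, SRPRB, which anchors the receptor in the ER membrane, had a change of 0.14 in the authors' deposited table. The α subunit under its current name SRPRA, outside the symbol rule, rose from 0.69 to 0.98, a change of 0.29 in the authors' deposited table (1.22-fold, adjusted p = 0.0393), in the opposite direction to SRP54. The TRAP complex, which sits beside the channel and aids some substrates, showed 0 of 4 calls, against 16.4% of all genes. Its changes were 0.21 for SSR4, 0.05 for SSR2, -0.04 for SSR1 and -0.16 for SSR3 in the authors' deposited table. With so few genes, neither count was tested against that share.

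Among the genes that the symbol rule takes, the enzymes that first act on the entering chain showed no call. Of all genes 16.4% were called, and with groups of only 5 and 6 genes the difference was not tested. Of the 5 signal peptidase genes 0 passed, and the nearest was SEC11A, a catalytic subunit, which went from a log2 TE of -0.06 to -0.34, a change of -0.28 (0.824-fold). Its adjusted p of 0.05004 in the authors' deposited table lay just above the threshold, and it passed in both single versions of the authors' p-value (adjusted p = 0.0474 and 0.0352). The other catalytic subunit, SEC11C, had a change of 0.06, and SPCS2 and SPCS3 had 0.04 and -0.17 in the authors' deposited table. The highest was the accessory subunit SPCS1, from -0.58 to -0.35, with 0.23 in the authors' deposited table (adjusted p = 0.286). For oligosaccharyltransferase, which attaches N-linked sugars, 0 of 6 genes passed and the changes spanned -0.20 for RPN1 (from -0.31 to -0.51, adjusted p = 0.131) to 0.12 for DDOST (from 0.40 to 0.53) in the authors' deposited table (adjusted p = 0.441). Between them lay RPN2 (0.09), the catalytic subunits STT3A (0.04) and STT3B (-0.02), and DAD1 (-0.09). The small subunit OST4, which the symbol rule leaves out, rose and is given below.

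**Figure D2:**
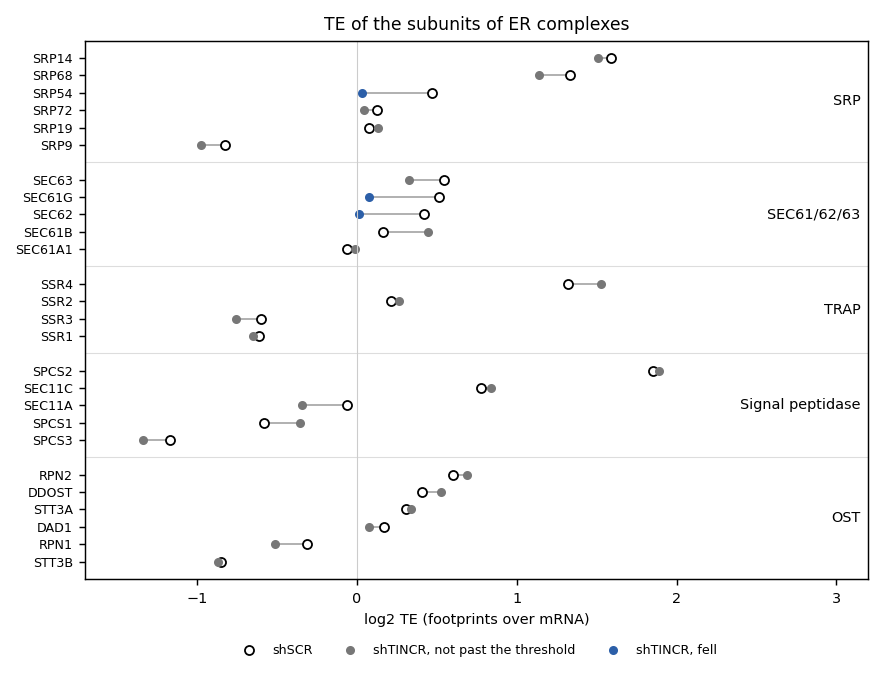
Log2 TE (x axis) of the subunits of 5 ER assemblies in shSCR cells (open circles) and shTINCR cells (filled circles), 1 gene per line, with no replicate error since the table has 1 value per hairpin. SRP14 and SRP9 are 2.42 apart in shSCR cells and SPCS2 and SPCS3 3.02, while in SEC61 the order of SEC61B (0.16 to 0.44) and SEC61G (0.51 to 0.07) turns between the hairpins.

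Levels of TE were far apart between some partners of a complex. TE is a ratio of footprints to mRNA of the same gene. Which region was counted for either is not given, so length may not cancel between genes, and its part in these levels was not tested. In shSCR cells TE of SRP14 was 5.33 times that of SRP9, although these proteins pair in the Alu domain of SRP, and in shTINCR cells it was 5.59 times. TE of SPCS2 was 8.12 times that of SPCS3 in shSCR and 9.4 times in shTINCR cells. In the TRAP complex SSR4 stood 3.78 times above SSR3 in shSCR and 4.86 times in shTINCR cells, and in oligosaccharyltransferase STT3A stood 2.23 and 2.32 times above STT3B. Whether these levels differ beyond replicate error could not be tested, as no value per library was at hand, and amounts of protein were not measured.

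The calls among the folding factors went in both directions. Of the 6 lectin chaperones and stress-induced folding factors 2 rose and 1 fell, with a median change of 0.13. The changes of 5 of the 6 lay above 0, and only that of CANX lay below. The share called was 50% of only 6 genes, against 16.4% of all genes (8.23% rose, 8.17% fell), and was not tested. SDF2L1, a partner of the ER DnaJ chaperones that is induced by ER stress, rose from a log2 TE of 0.65 to 1.06 in the authors' deposited table (change 0.41, 1.33-fold, adjusted p = 0.047). CRELD2, an ER stress-induced protein with disulfide isomerase activity, rose from 0.66 to 1.01 in the authors' deposited table (0.35, 1.28-fold, adjusted p = 0.0476). Both calls lay close to the threshold. CANX, the membrane-bound lectin chaperone calnexin, fell from -0.47 to -0.71 in the authors' deposited table (-0.25, 0.842-fold, adjusted p = 0.025). Its soluble counterpart calreticulin, CALR, stood at 1.28 and 1.31 with a change of 0.03 in the authors' deposited table (adjusted p = 0.84), so that TE of CALR was 3.35 times that of CANX in shSCR and 4.07 times in shTINCR cells. HYOU1, a nucleotide exchange factor of BiP, had a change of 0.21 (adjusted p = 0.0893), and MANF, a secreted factor that binds BiP, one of 0.05 in the authors' deposited table.

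XBP1, the transcription factor whose mRNA is spliced by the ER sensor IRE1 during the UPR, rose from a log2 TE of -0.95 to -0.66 in the authors' deposited table (0.28, 1.22-fold, adjusted p = 0.0428). Its TE was low among the ER genes, at the 15.3th percentile of the table in shSCR cells. Spliced and unspliced XBP1 mRNA encode different proteins and are not told apart in a value per gene.

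Disulfide formation spanned the narrowest range of the role groups with more than 1 gene. None of its 7 genes passed, against 16.4% of all genes, and 0 had an unadjusted p below 0.05, against 29.5%. All changes lay between -0.13 and 0.14. Their SD across the 7 genes was 0.095, close to the median implied standard error of the group, 0.0989. The difference from other groups was not tested. The oxidoreductases PDIA3, PDIA6, P4HB, PDIA4 and PDIA5 are listed at -0.13, -0.09, -0.02, 0.02 and 0.11, in that order, by the authors' deposited table. ERO1A, an oxidase that recharges protein disulfide isomerase, had 0.14, and its paralog ERO1B is listed at a change of exactly 0, as are 22 genes in all, in the authors' deposited table. TE of PDIA3 was among the highest, at 1.58 in shSCR and 1.46 in shTINCR cells (adjusted p = 0.399 by the authors), while ERO1A stood at -1.16 and -1.03 (adjusted p = 0.517 by the authors) and ERO1B at -1.17 in both.

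In ER-associated degradation 0 of 5 genes passed, with a median change of 0.05. Of all genes 16.4% passed, and the difference was not tested in so few genes. HERPUD1, a stress-induced scaffold of the HRD1 ubiquitin ligase, went from -0.16 to 0.16 in the authors' deposited table (0.31, 1.24-fold, adjusted p = 0.0701). DERL2, a channel component, stood lowest, from -0.14 to -0.36 with a change of -0.22 (adjusted p = 0.417), followed by SEL1L (-0.09), DERL1 (0.05) and the mannosidase-like EDEM1 (0.16) in the authors' deposited table. EDEM1 had the lowest TE of the 58 genes, at -2.54 in shSCR and -2.38 in shTINCR cells, within the lowest 0.845% of the table.

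Of the 12 COPII and other SEC genes 0 passed, against 16.4% of all genes, a difference that was not tested in so few genes. Paralogs of the coat's cargo adaptor stood on both sides of 0: SEC24A had -0.18 and SEC24D 0.03 in the authors' deposited table. SEC24B was the lowest, from 0.90 to 0.58 with a change of -0.32 in the authors' deposited table (adjusted p = 0.188). SEC24C was the highest, from 0.25 to 0.54 with a change of 0.29 in the authors' deposited table (adjusted p = 0.104). SEC24C passed only in the second version of the authors' p-value (adjusted p = 0.0413). The inner coat paralogs SEC23A and SEC23B had -0.17 and 0.12, and the outer coat proteins SEC31A and SEC13 had -0.06 and 0.15 in the authors' deposited table. The scaffold SEC16A stood at 0.18, SEC23IP at -0.15, the SNARE SEC22B at -0.09 and the lipid-binding SEC14L2 at -0.06 in the authors' deposited table.

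**Figure D3:**
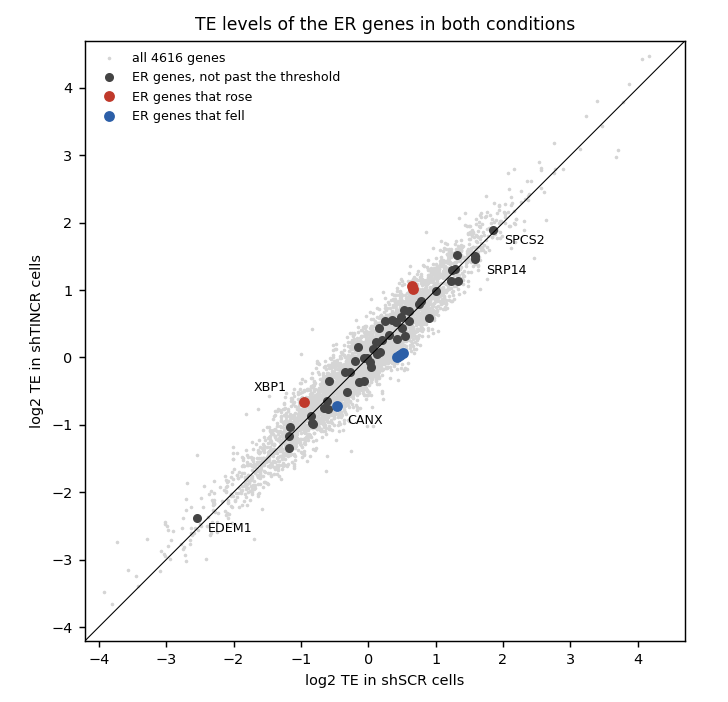
Log2 TE in shTINCR cells (y axis) against log2 TE in shSCR cells (x axis) for all 4616 genes (grey) and the 58 ER genes (dark, with the 3 rises in red and the 4 falls in blue); the line marks equal TE. The ER genes range from EDEM1 at -2.54 to SPCS2 at 1.85 in shSCR cells and stay close to the line.

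As a set, the ER genes had a TE somewhat above the typical gene. Their median log2 TE was 0.19 in shSCR and 0.14 in shTINCR cells, against 0.0078 and 0.0019 for all genes, and 36 of 58 (62.1%) were in the upper 50% of the table in shSCR cells. Of these genes 9 (15.5%) were in the top 10% of TE: SPCS2, SRP14, PDIA3, SRP68, SSR4, CALR, MANF, PDIA6 and P4HB. In the lowest 10% there was 1, EDEM1. The table keeps its own selection of genes, by a filter the sources used here do not give, so these shares describe the genes listed.

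Many ER genes are controlled at transcription by the ER stress element, and its presence was set beside the TE changes. RefSeq (GRCh38.p14) gave a promoter window, 250 bases before to 50 after the start, for 52 of the 58 genes. The element was searched on both strands as CCAAT, any 9 bases, then CCACG. It was found in 5 of these 52 windows (9.62%), in 10 of 3857 windows of the genes of the table (0.259%) and in 22 of all 27305 windows (0.0806%). The 5 windows are those of XBP1, CRELD2, CANX, CALR and ERO1B. The stretch around each element is shown because these genes include 3 of the 7 called ones, a choice made with the calls known. Among all genes 16.4% were called, and a link between the element and the calls was not tested. Capitals mark the CCAAT and CCACG blocks, which read as ATTGG and CGTGG where the element lies on the opposite strand.
XBP1: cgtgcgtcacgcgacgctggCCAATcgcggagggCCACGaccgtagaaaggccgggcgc
CRELD2: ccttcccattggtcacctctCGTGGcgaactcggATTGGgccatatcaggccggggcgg
CANX: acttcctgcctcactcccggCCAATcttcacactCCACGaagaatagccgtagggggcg
CALR: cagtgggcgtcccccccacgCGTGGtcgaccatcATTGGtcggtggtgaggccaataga
ERO1B: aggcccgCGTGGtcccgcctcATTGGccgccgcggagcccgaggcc
The stretches lie at chr22:28800583-28800641 (minus strand), chr22:49918534-49918592 (plus), chr5:179698758-179698816 (plus), chr19:12938364-12938422 (plus) and chr1:236282163-236282208 (minus), all upstream of the annotated start.

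Genes with the element moved in both directions. TE of XBP1 and CRELD2 rose, that of CANX fell, and the authors' deposited table lists 0.03 for CALR and 0 for ERO1B. SDF2L1, the largest rise, had no match in its window. Only the exact form was searched, so a window without a match may still hold a variant of the element. The CCACG block alone, which the full element contains, was found in 37 of the 52 windows (71.2%), against 52.6% of windows of the genes of the table. The element acts on the amount of mRNA, by which TE is divided, and amounts of mRNA were not analysed here. A C followed by 4 or more C or T at the annotated start, as in mRNAs of the translation machinery, was found in 3 of 52 windows (5.77%, SEC24B, SEC63 and SSR2) against 6.66% for the genes of the table.

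Other genes of the same pathways were taken from 7 lists by function, 105 genes that the symbol rule leaves out. Of these 8 rose and 4 fell (11.4% called, against 16.4% of all genes), with a median change of 0.06. Among all genes 8.23% rose and 8.17% fell, the shares to set beside the counts of each list below. Around the translocon 2 of 11 fell: TRAM1, a membrane protein beside SEC61, by 0.50 on the log2 scale (adjusted p = 0.00018), and BTF3, a subunit of the nascent chain complex NAC, by 0.22 in the authors' deposited table (adjusted p = 0.0484). The list as a whole did not fall: 6 of its 11 changes lay above 0 and the median was 0.0096. In the insertion of tail-anchored and other membrane proteins 1 of 11 rose, UBL4A, a part of the BAG6 complex, with a change of 0.50 in the authors' deposited table (adjusted p = 0.0149). Its partners GET4 and BAG6 had 0.35 (adjusted p = 0.08) and 0.03 in the authors' deposited table. Among other glycosylation genes 1 of 11 rose, OST4, a small subunit of oligosaccharyltransferase, with 0.41 in the authors' deposited table (adjusted p = 0.0391).

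The list of other chaperones and folding enzymes showed no call. Of 23 other folding enzymes 0 passed in the authors' comparison, 1 had an unadjusted p below 0.05 (DNAJC3, a change of -0.27) and the median was 0.0048. HSPA5, which encodes BiP, had -0.03 (adjusted p = 0.848), and HSP90B1, which encodes GRP94, had -0.04 in the authors' deposited table (adjusted p = 0.827). Of 11 sensors, regulators and targets of the UPR 3 were called (27.3%, against 16.4% of all genes, of which 8.23% rose), and all 3 rose: ATF4 with 0.99 (adjusted p = 1.4e-06), the ER-membrane transcription factor CREB3L2 with 0.46 (adjusted p = 0.00447) and CEBPB with 0.42 in the authors' deposited table (adjusted p = 0.0107). ATF6, the sensor that is cut in the Golgi, stood at 0.08, and PPP1R15A, which restores initiation after PERK signalling, at -0.03 in the authors' deposited table. The sensors IRE1 (ERN1) and PERK (EIF2AK3) had 0 rows.

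Among 16 other genes of ER-associated degradation 2 rose and 1 fell (18.8% called, against 16.4% of all genes). UFD1 and NPLOC4, which form a heterodimer that guides the ATPase VCP, were called in opposite directions: UFD1 had -0.33 (adjusted p = 0.0255) and NPLOC4 had 0.30 in the authors' deposited table (adjusted p = 0.0461). Among 22 genes of ER exit and cargo receptors, the p24 protein TMED10 rose with 0.35 (adjusted p = 0.0149) and BCAP29 fell with -0.31 in the authors' deposited table (adjusted p = 0.0414).

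**Figure D4:**
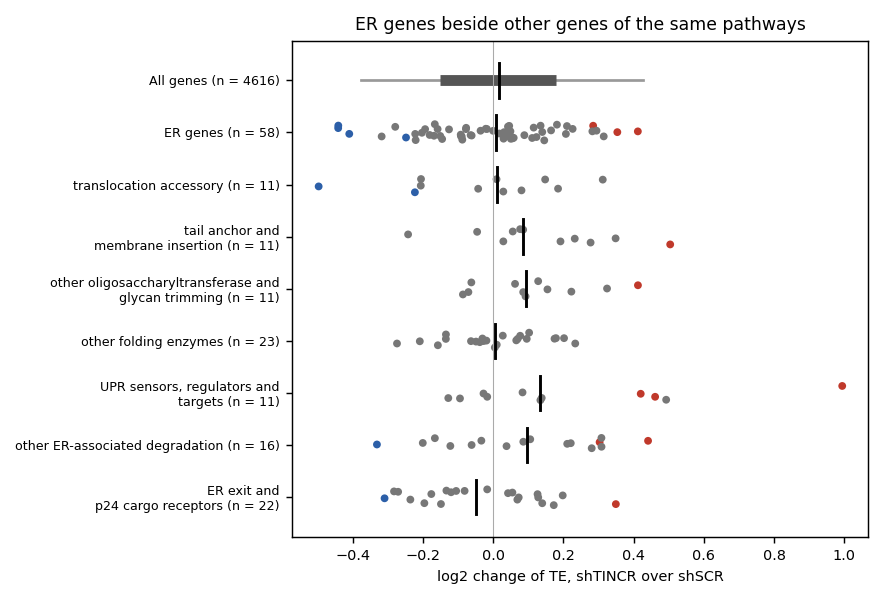
Log2 change of TE (x axis) of the 58 ER genes and of 7 lists of other genes of the same pathways, 1 point per gene, in red for rises and blue for falls at adjusted p below 0.05; for all genes the thick bar spans the middle 50% and the thin line the middle 90%. Black ticks are medians, which run from -0.05 for ER exit and cargo receptors to 0.13 for UPR sensors, regulators and targets.

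Of the 58 genes 14 have named pseudogenes in RefSeq, with which reads can be shared, among them SEC61G and XBP1 of the called genes. The most are named for SRP14 (5) and SPCS2 (4), whose TE was set above against that of SRP9 (1) and SPCS3 (0). SEC31A contains 2 genes of small nucleolar RNAs and the other 57 contain 0. The part of either in these values was not tested.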

How the data were processed

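Footprint and RNA libraries of WM902B cells with shSCR or shTINCR (8 libraries, 2 replicates per group) enter 1 deposited comparison. Per the submitters' processing notes, the tools were HTSeq 0.5.3p9, DESeq 1.10.1, TopHat2 2.0.8, CASAVA 1.9, SAMtools 0.1.18 and Bowtie2 2.1.0 and the build was hg19, with no roles stated. Which region was counted, how genes were filtered and which tool made the TE columns, the sources used here do not give. Per the file headers, the log2 columns hold log2 TE for each hairpin and a log2 change in 2 versions plus a final choice. Per the file headers, the p-value columns hold 1 p-value per version, the final one and its adjustment. In all 4616 rows the deposited final p-value was the less significant version, and a Benjamini-Hochberg adjustment of it gave the deposited adjusted values. With no values per library, a count test could not be run, and the authors' p-values are described.

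Here, ER genes were selected by symbol, called at the deposited adjusted p below 0.05, and grouped by textbook function. Every ER gene is named; of the other lists, the called genes or the gene of smallest p, plus some partners and well-known genes (GET4, BAG6, HSPA5, HSP90B1, ATF6, PPP1R15A, SRPRA) chosen after their values were seen. The values of 1 called gene of these lists are not reported here. The genes and lists were chosen with earlier results of these data known. Members are not replicates, so medians carry no test. The implied standard error is the absolute change over the normal quantile of its p-value. RefSeq names matched 58 of 58 ER genes and 4604 of 4616 symbols. The adjustment was tested on simulated data. The work used scipy 1.17.1, numpy 2.4.6, pandas 2.3.3, matplotlib 3.10.9 and Python 3.11.15. Alternatives were other p-value versions, thresholds and centring, and SRPRA as an added gene, chosen after seeing the data.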

Additional observations from a re-analysis of the deposited data

How the results depend on the processing

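The count of ER genes past the threshold (7, with 3 rises and 4 falls) stayed within 1.5 times under either single version of the authors' p-value and with a log2 change of at least 0.25 as well. At an adjusted p below 0.01 it was 2 (0 rises, 2 falls), and by Bonferroni over all rows of the authors' p-values it was 0 (0 rises, 0 falls), where 13 had an unadjusted p below 0.05. At 0.1 there were 5 rises. With SRPRA, added after seeing the data, there were 8 calls and 4 rises. The calls of 3 genes depended on the version: SEC11A passed in both, HERPUD1 in the first (adjusted p = 0.0414 from the authors' p-value) and SEC24C in the second. The median change of the ER genes was -0.0072 after centring on all genes, -0.0091 as a mean, 0.0245 without COPII and other SEC genes and 0 without the lowest 10% of TE, all near the 0.0089 reported and without a settled sign. No paired analysis was possible because the table holds no value per library; for the same reason no replicate could be left out, and depth is unknown.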

Other observations

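All 3 ER genes that rose lie on chromosome 22, as does 1 other of the 58, SEC14L2 (-0.06 in the authors' deposited table). Among all genes of the table, 22 of 122 on chromosome 22 rose and 4 fell, and on chromosome 19 50 of 277 rose and 6 fell, against 8.23% that rose overall. Median GC of the promoter window was 68.3% for all genes that rose, 65.3% for those not called and 62.3% for those that fell. It was 72.3% for the 3 ER genes that rose and 63.5% for the 4 that fell, with ranges of 68.7% to 75% and 52% to 73% that overlap. These were noticed after the values were seen and were not tested.

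The 5 genes of the table outside the ER set that hold the ER stress element in the window are HSPA5, HSP90B1, SERP1, EIF2A and TRIM5. Of these EIF2A fell by 0.78 (adjusted p = 6.8e-10), and SERP1, which encodes an ER protein associated with SEC61, had -0.13 (adjusted p = 0.628) in the authors' deposited table.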
